A study of Mus musculus with 12 samples.

Results

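Hepatocyte identity is held by a small set of transcription factors, and 9 of them are described here in mouse liver RNA-seq: Hnf4a, Foxa1, Foxa2, Foxa3, Cebpa, Cebpb, Onecut1, Prox1 and Nr5a2. They were taken by name, as the 9 of 35275 rows of the expression table whose Ensembl identifier belongs to these symbols in the GENCODE M21 annotation of GRCm38. The rule uses no measured value. The study compared wild-type (WT) mice with Pctp-/- mice, which lack phosphatidylcholine transfer protein (PC-TP) in the whole body, so the knockout is not limited to hepatocytes. Whole liver was taken from mice fed a chow diet or a diet deficient in methionine and choline (MCD), and each of the 4 groups (WT on chow, Pctp-/- on chow, WT on MCD, Pctp-/- on MCD) held 3 libraries that the labels call biological replicates. The study's methods describe male mice, and neither age nor the length of the diet is given in the sources used here for these livers. Values are FPKM, the fragments counted on a gene per kilobase of its length, scaled to the mapped fragments of the library, so levels of different genes can be set side by side.

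Liver-enriched transcription factors bind in combination to the promoters and enhancers of genes for plasma proteins, gluconeogenesis, bile acids and lipid export, and they also regulate one another in a cross-regulatory circuit. HNF4A is an orphan nuclear receptor at the centre of that circuit, the FOXA proteins are pioneer factors that open chromatin, and CEBPA and CEBPB are basic leucine zipper proteins of quiescent and of stressed or regenerating hepatocytes. ONECUT1 (HNF6) and PROX1 act early in liver development, and NR5A2 (LRH-1) is a nuclear receptor of bile acid and cholesterol metabolism that binds phospholipids.

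The stretches just before the start sites are shown for 4 of the factors, 3 that fell on the MCD diet and Nr5a2, which had no call, so that matches to motifs of the factors themselves can be read. Each is the 250 bases before a RefSeq start site on GRCm38.p6, read 5′ to 3′ on the strand of the gene. Capitals mark a match, on either strand, to ATCAAT, the letters searched for ONECUT factors, in Foxa2, and to TTGCNNAA, those for C/EBP factors, in Nr5a2. The Foxa2 stretch lies at chr2:148046970-148047219 (minus strand), before the most upstream of its 3 start sites, and the Cebpb stretch at chr2:167688665-167688914 (plus strand). The Onecut1 stretch is chr9:74861671-74861920 (plus strand), and the Nr5a2 stretch chr1:136953631-136953880 (minus strand), before the downstream of its 2 start sites.
Foxa2: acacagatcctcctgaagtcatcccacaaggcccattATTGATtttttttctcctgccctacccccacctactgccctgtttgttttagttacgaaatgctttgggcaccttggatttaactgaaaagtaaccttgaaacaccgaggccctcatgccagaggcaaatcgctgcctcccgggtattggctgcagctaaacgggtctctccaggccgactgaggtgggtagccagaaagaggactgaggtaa
Cebpb: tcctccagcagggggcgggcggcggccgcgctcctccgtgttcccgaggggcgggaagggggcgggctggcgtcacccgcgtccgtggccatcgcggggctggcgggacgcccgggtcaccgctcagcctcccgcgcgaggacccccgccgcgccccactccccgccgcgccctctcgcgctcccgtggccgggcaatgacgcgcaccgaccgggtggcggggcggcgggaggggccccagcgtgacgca
Onecut1: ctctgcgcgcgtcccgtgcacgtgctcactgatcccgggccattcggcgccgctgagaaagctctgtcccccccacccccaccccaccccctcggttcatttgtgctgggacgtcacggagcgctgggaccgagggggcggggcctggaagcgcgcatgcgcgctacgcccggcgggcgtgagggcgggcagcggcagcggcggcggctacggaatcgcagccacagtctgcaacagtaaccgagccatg
Nr5a2: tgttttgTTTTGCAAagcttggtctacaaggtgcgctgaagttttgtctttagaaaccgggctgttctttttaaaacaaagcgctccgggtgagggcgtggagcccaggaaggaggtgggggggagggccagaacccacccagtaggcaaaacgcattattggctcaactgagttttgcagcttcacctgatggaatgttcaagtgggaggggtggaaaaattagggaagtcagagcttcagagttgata
All 9 factors had at least 1 such stretch, 14 in all. The Foxa2 stretch holds ATCAAT as ATTGAT on the strand shown, from base -213 to -208 before the start, and the stretch before the upstream start of Hnf4a also holds it, from -59 to -54. Among 32841 upstream stretches of the same length in the RefSeq table, 6.72% held ATCAAT. The Nr5a2 stretch holds the C/EBP letters from -243 to -236, as did 9.57% of all stretches. The FOXA letters TGTTTAC were found before Foxa1, from -141 to -135, and in 3.17% of all stretches. No match overlapped a match to another motif. CAAAGTCCA for HNF4 and CAAGGTCA for NR5A2 were in none of the 14 stretches and in 0.384% and 1.33% of all stretches. No motif searched was found before Foxa3, Cebpa, Cebpb, Onecut1 or Prox1, which says only that these letters are not in these windows. The stretch before Cebpb was the richest of the 14 in G and C, at 81.6%, and that before the upstream start of Nr5a2 the poorest, at 43.2%.

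Each chow library had between 30486576 and 55179468 uniquely mapped reads, and each MCD library between 33463498 and 46246856. The chow and MCD libraries differed as sets: 77.59 to 79.41% of the reads of the chow set mapped uniquely against 85.66 to 87.55% of the MCD set, the GC content of the reads was 49.83 to 51.24% against 48.42 to 49.16%, and the error rate was 0.03% against 0.01%. Every difference between diets below is therefore also a difference between these sets, and the diet and the set cannot be told apart, whereas the genotypes were compared within a set. Pctp, the targeted gene, was listed at 1.21 to 2.65 FPKM in WT mice and 0.330 to 0.566 in Pctp-/- mice on chow, and at 3.61 to 7.90 and 0.156 to 0.329 on MCD.

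On chow the order of the levels in WT livers ran from Cebpa (593 ± 159 FPKM, SD, n = 3) through Hnf4a (239 ± 17.8), Cebpb (146 ± 19.9), Foxa2 (58.7 ± 28.6), Foxa3 (49.1 ± 10.8), Foxa1 (29.2 ± 18.7) and Onecut1 (24.6 ± 20.4) to Prox1 (12.9 ± 2.50) and Nr5a2 (12.9 ± 0.748). Cebpa, Hnf4a and Cebpb did not overlap with their neighbours in this order, while the ranges of each neighbouring pair from Foxa2 down overlapped. On MCD the order in WT livers was Cebpa (141 ± 20.5 FPKM), Hnf4a (110.4 ± 4.65), Cebpb (26.7 ± 2.08), Foxa3 (18.999 ± 4.05), Foxa2 (17.7 ± 0.572), Nr5a2 (15.3 ± 1.42), Prox1 (10.4 ± 2.80), Foxa1 (5.81 ± 0.180) and Onecut1 (1.78 ± 0.626), and of the neighbours in this order only Foxa3 and Foxa2 overlapped. Nr5a2 and Prox1, the lowest of the 9 by mean in WT livers on chow, thus stood above Foxa1 and Onecut1 in WT livers on MCD. In Pctp-/- livers Onecut1 was the lowest already on chow, at 7.72 FPKM. In Pctp-/- livers on chow Cebpb was the second factor, at 272 ± 126 FPKM, ahead of Hnf4a at 193 ± 14.9, with ranges that overlapped.

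**Figure D1:**
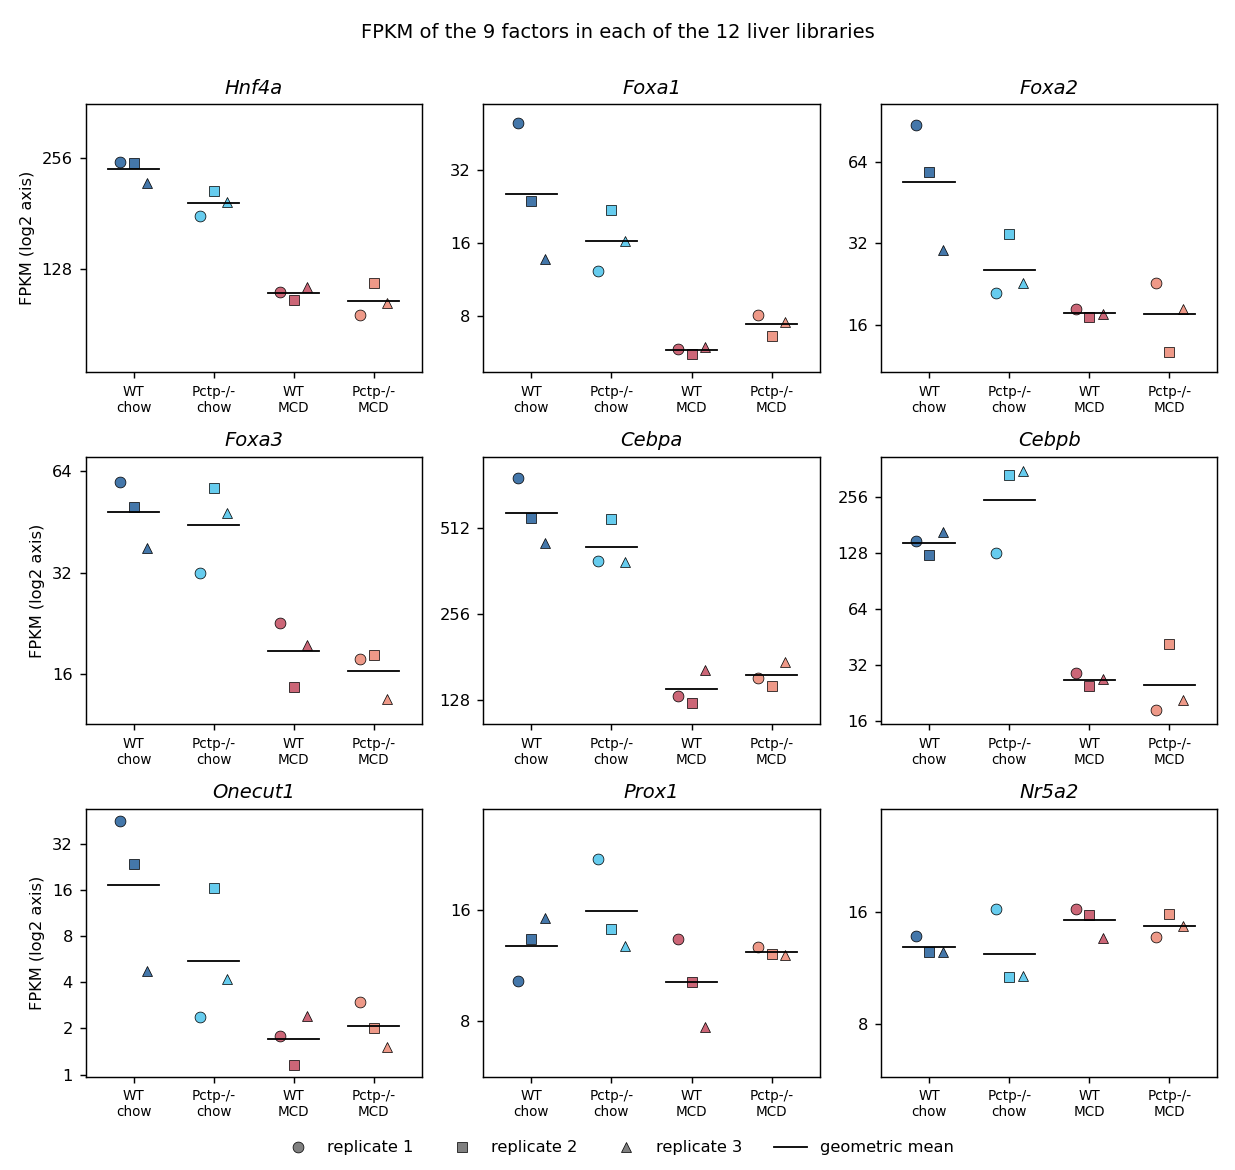
FPKM of each of the 9 factors (log2 axis) in the 12 livers, with a marker per library by its replicate number and a line at the geometric mean of each group. In 7 panels every WT MCD library lies under every WT chow library, and in the Prox1 and Nr5a2 panels the WT groups overlap.

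In WT livers 7 of the 9 factors were lower on the MCD diet than on chow by limma at an adjusted p under 0.05, against 22.5% of the 12466 genes tested that were called lower. None was higher, against 34.5% of all genes tested, and Prox1 and Nr5a2 did not pass in either direction. The fall was between 2.15-fold for Hnf4a and 6.85-fold for Onecut1 on the scale of FPKM + 1. The median log2 difference of the 9 was -1.55, and that of all tested genes was 0.11. Without single libraries the median of the 9 ran from -1.96 to -1.21, and 7 factors were called lower each time. The same 7 factors had WT groups that did not overlap, as had 26.0% of all tested genes in this direction. In whole liver, fewer hepatocytes and less RNA of a factor per hepatocyte cannot be told apart. The limma p-values set each difference against the spread between mice within groups, pooled over the 4 groups and drawn toward that of other genes. That spread does not hold the difference between the chow and MCD sets.

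HNF4A is the nuclear receptor whose loss silences much of the hepatocyte programme, and its gene (ENSMUSG00000017950) lies on chromosome 2, from 163506808 to 163572910 on the plus strand. Hnf4a was 249.6, 248 and 218 FPKM in the WT chow libraries and 111, 105 and 115 in the WT MCD libraries. Pctp-/- livers had 178, 208 and 194 FPKM on chow and 96.2, 117 and 103 on MCD. The lowest chow library of either genotype stood above the highest MCD library. The log2 difference between diets was -1.10 ± 0.10 (SE) in WT livers (adjusted p = 2.78e-06, limma) and -0.87 ± 0.10 in Pctp-/- livers (adjusted p = 2.22e-05). Hnf4a varied least of the 9 between mice on chow, with an SD within groups of 0.11 on the log2 scale, where the median tested gene had 0.17. An antisense gene, Hnf4aos, overlaps it on the opposite strand at 0.625 to 11.1 FPKM, and whether the counting used the strand is not given in the sources used here.

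The FOXA factors share a forkhead DNA-binding domain and engage liver enhancers before other factors. Foxa1 (ENSMUSG00000035451) lies on chromosome 12, 57540628 to 57546916, minus strand. It was 49.9, 23.9 and 13.7 FPKM in WT mice on chow and 5.88, 5.61 and 5.95 on MCD. The chow libraries spanned a wide range, the MCD libraries a narrow one, and the groups did not overlap. The log2 difference in WT livers was -1.96 ± 0.34 (adjusted p = 3.81e-04, limma). Foxa1 in Pctp-/- livers was 12.3, 21.8 and 16.2 FPKM on chow and 8.11, 6.65 and 7.59 on MCD, again without overlap. The log2 difference in Pctp-/- livers was -1.04 ± 0.34 (adjusted p = 0.0215, limma). This call was lost without replicate 2 of the Pctp-/- chow group (-0.84, adjusted p = 0.0861) or replicate 2 of the Pctp-/- MCD group (-0.97, adjusted p = 0.0645), with no minimum FPKM (adjusted p = 0.0535), and when log2 values were corrected for the GC content and length of transcripts (-0.80, adjusted p = 0.0793).

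Foxa2 (ENSMUSG00000037025; chromosome 2, 148042877 to 148046969, minus strand) encodes the paralogue tied most closely to the fasting response and bile acid homeostasis. It was 87.3, 58.6 and 30.2 FPKM in WT livers on chow and 18.3, 17.2 and 17.6 on MCD, a log2 difference of -1.55 ± 0.32 (adjusted p = 0.00132, limma). Pctp-/- livers had 21.04, 34.7 and 22.8 FPKM on chow and 22.8, 12.8 and 18.4 on MCD. The WT groups were apart and the Pctp-/- groups overlapped, and in the latter the log2 difference of -0.52, with a 95% confidence interval of -1.21 to 0.17, did not pass (adjusted p = 0.193). On MCD the means of the genotypes were 17.7 ± 0.572 and 17.999 ± 5.04 FPKM, and on chow 58.7 ± 28.6 and 26.2 ± 7.45. The difference between the 2 diet differences was 1.03 (95% interval 0.05 to 2.01) and did not pass after adjustment (adjusted p = 0.303, limma).

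Foxa3 (ENSMUSG00000040891; chromosome 7, 19013284 to 19023538, minus strand) is the third FOXA gene, expressed mainly in tissues of endodermal origin. It was 59.4, 50.1 and 37.8 FPKM in WT livers and 31.99, 57.1 and 48.1 in Pctp-/- livers on chow. On MCD it was 22.7, 14.7 and 19.6 FPKM in WT and 17.7, 18.2 and 13.5 in Pctp-/- livers. Every MCD library was under every chow library. The log2 differences were -1.32 ± 0.23 (adjusted p = 3.69e-04, limma) and -1.39 ± 0.23 (adjusted p = 3.22e-04), and the interval of their difference was -0.76 to 0.63.

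CEBPA drives genes of gluconeogenesis and the urea cycle and restrains proliferation. Cebpa (ENSMUSG00000034957; chromosome 7, 35119293 to 35121928, plus strand) was 768, 555 and 456 FPKM in WT livers on chow and 133, 126 and 164 on MCD. The Pctp-/- livers held 394, 551 and 391 FPKM on chow and 153, 144 and 174 on MCD. The lowest chow value, 391, stood above the highest MCD value, 174. The log2 difference was -2.04 ± 0.19 in WT livers (adjusted p = 3.66e-06, limma) and -1.48 ± 0.19 in Pctp-/- livers (adjusted p = 5.54e-05). With the correction for GC content and length these became -1.35 (adjusted p = 3.12e-05) and -0.64 (adjusted p = 0.00705). A gene of the antisense class, Gm45091, overlaps the 5′ end of Cebpa by 313 bases.

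CEBPB takes part in the acute phase response, in regeneration and in the response to stress of the endoplasmic reticulum. Cebpb (ENSMUSG00000056501; chromosome 2, 167688915 to 167690418, plus strand) was 149, 125 and 165 FPKM in WT and 127, 334 and 354 in Pctp-/- livers on chow. On MCD it was 28.8, 24.7 and 26.7 FPKM in WT and 18.2, 41.2 and 20.7 in Pctp-/- livers. The diets were far apart in both genotypes, and the Pctp-/- libraries were the more scattered on each diet. The log2 difference was -2.40 ± 0.35 in WT (adjusted p = 1.30e-04, limma) and -3.25 ± 0.35 in Pctp-/- livers (adjusted p = 1.72e-05), the largest of the 9 factors in the latter, at 9.54-fold. After the correction for GC content and length the differences were -1.47 (adjusted p = 0.00307) and -2.11 (adjusted p = 4.09e-04). Tmem189 overlaps Cebpb by 908 bases on the opposite strand and was listed at 3.13 to 5.17 FPKM.

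ONECUT1 works with HNF4A and the FOXA factors at liver promoters. Onecut1 (ENSMUSG00000043013; chromosome 9, 74861921 to 74891781, plus strand) was 45.4, 23.6 and 4.72 FPKM in WT livers on chow and 1.78, 1.15 and 2.40 on MCD. The Pctp-/- libraries had 2.39, 16.6 and 4.18 FPKM on chow and 2.96, 2.00 and 1.52 on MCD. The WT groups did not overlap, although the lowest WT chow library was close to the MCD range, and the Pctp-/- groups overlapped. The log2 difference was -2.78 ± 0.68 in WT livers (adjusted p = 0.00410, limma), and it was -2.12 without replicate 1 and -3.63 without replicate 3 of the WT chow group. Its difference in Pctp-/- livers was -1.12, with an interval of -2.60 to 0.36, and did not pass (adjusted p = 0.187). Its SD within groups on chow was 1.40 on the log2 scale, larger than that of 99.96% of tested genes.

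Prox1 and Nr5a2 had no call between the diets in either genotype. PROX1 is a homeodomain protein of hepatocytes and of lymphatic endothelium, and Prox1 (ENSMUSG00000010175; chromosome 1, 190118035 to 190170714, minus strand) was 10.3, 13.3 and 15.2 FPKM in WT livers on chow and 13.3, 10.2 and 7.73 on MCD. Pctp-/- livers had 21.9, 14.2 and 12.7 FPKM on chow and 12.7, 12.1 and 12.05 on MCD. The WT groups overlapped, and the lowest Pctp-/- chow library, 12.7 FPKM, lay just above the highest on MCD. The log2 differences were -0.30 (interval -0.75 to 0.16, adjusted p = 0.242, limma) and -0.34 (interval -0.80 to 0.11, adjusted p = 0.192). The antisense genes Gm28172 (1.23 to 4.12 FPKM) and Prox1os (1.496 to 3.78 FPKM) overlap its 5′ part. The 4 lymphatic endothelial markers together had 3.87 to 7.51 FPKM in the WT chow and 3.84 to 6.80 in the WT MCD libraries.

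Nr5a2 (ENSMUSG00000026398; chromosome 1, 136842571 to 136960448, minus strand) was 13.8, 12.5 and 12.5 FPKM in WT livers on chow and 16.4, 15.8 and 13.7 on MCD. Pctp-/- livers had 16.3, 10.7 and 10.8 FPKM on chow and 13.7, 15.8 and 14.7 on MCD. The groups overlapped in both genotypes. The log2 differences of Nr5a2 were 0.22 (interval -0.08 to 0.53, adjusted p = 0.194, limma) and 0.24 (interval -0.07 to 0.54, adjusted p = 0.183), so a fall of the size seen for Hnf4a lies outside both intervals. Without replicate 1 of the Pctp-/- chow group Nr5a2 passed as higher on MCD in Pctp-/- livers, at 0.42 (adjusted p = 0.00544).

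In the Pctp-/- mice 5 of the 9 factors (Hnf4a, Foxa1, Foxa3, Cebpa and Cebpb) were called lower on MCD, against 24.4% of all tested genes, and none was called higher, against 26.0%. The groups of 6 factors did not overlap, these 5 and Prox1, as was the case for 27.5% of all tested genes in this direction. The median log2 difference of the 9 was -1.04 and that of all tested genes 0.04. None of the 9 differed between the genotypes in its diet difference after adjustment (limma), where 0.0963% of all tested genes did. At an unadjusted p under 0.05 there was 1, Foxa2, where 15.1% of all tested genes were under it. Without single libraries there were 0 to 4: 0 without any 1 of 7 libraries, and 4 without replicate 3 of WT chow or replicate 2 of Pctp-/- chow. The intervals were wide for Onecut1 (1.65, interval -0.44 to 3.74), Foxa1 (0.92, -0.11 to 1.95) and Cebpb (-0.85, -1.95 to 0.24), and narrow for Nr5a2 (0.01, -0.42 to 0.45). Without single libraries the difference ran from 1.00 to 2.51 for Onecut1, 0.45 to 1.35 for Foxa1, 0.69 to 1.44 for Foxa2 and -1.33 to -0.60 for Cebpb.

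**Figure D2:**
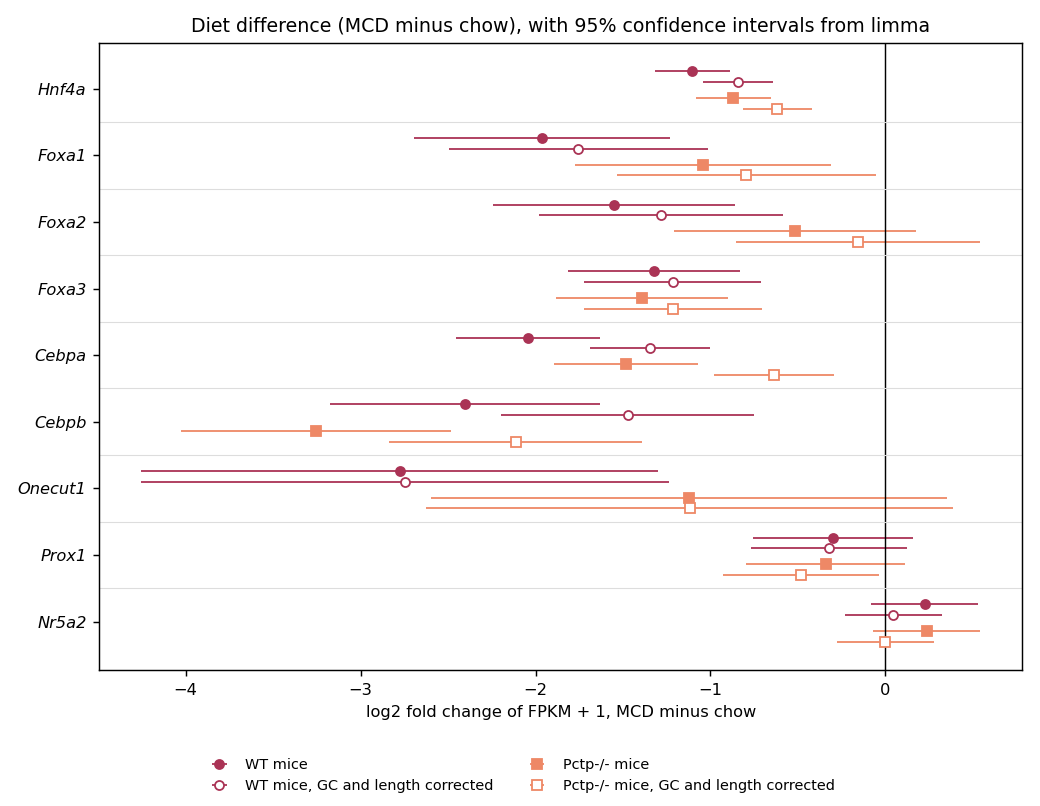
Log2 difference of FPKM + 1 between MCD and chow for each factor in WT mice (circles) and Pctp-/- mice (squares), with 95% confidence intervals from limma; open symbols are values corrected for GC content and length. The 7 lower factors of WT mice stay under 0 with the correction, while Prox1 and Nr5a2 had no call in either genotype.

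Transcript GC content moved with the diet differences in the whole table, so it is given beside those of the factors. Over all tested genes, divided into 5 equal bins of GC content, the median log2 difference in WT livers was 0.41, 0.25, 0.12, -0.06 and -0.34 from the lowest bin to the highest, and in Pctp-/- livers it was 0.35, 0.19, 0.04, -0.15 and -0.47. The longest transcripts of Cebpb (67.2% GC) and Cebpa (62.6%) are the richest of the factors, followed by Foxa2 (57.0%), Foxa3 (54.4%), Foxa1 (54.2%), Hnf4a (53.7%) and Onecut1 (49.7%). Prox1 (45.3%) and Nr5a2 (43.2%), the factors with no call, are the poorest. With the correction, 7 of 9 remained lower in WT livers, the same 7, and 4 in Pctp-/- livers. Of the 12401 genes corrected, 2391 were called lower in WT and 2536 in Pctp-/- livers. Hnf4a then differed by -0.84 and -0.62, Foxa3 by -1.22 and -1.22, Foxa2 by -1.28 and -0.15, and Onecut1 by -2.75 and -1.12, WT livers given before Pctp-/- livers. Nr5a2 was at 0.05 and 0.00 and Prox1 at -0.32 and -0.48, without a call.

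**Figure D3:**
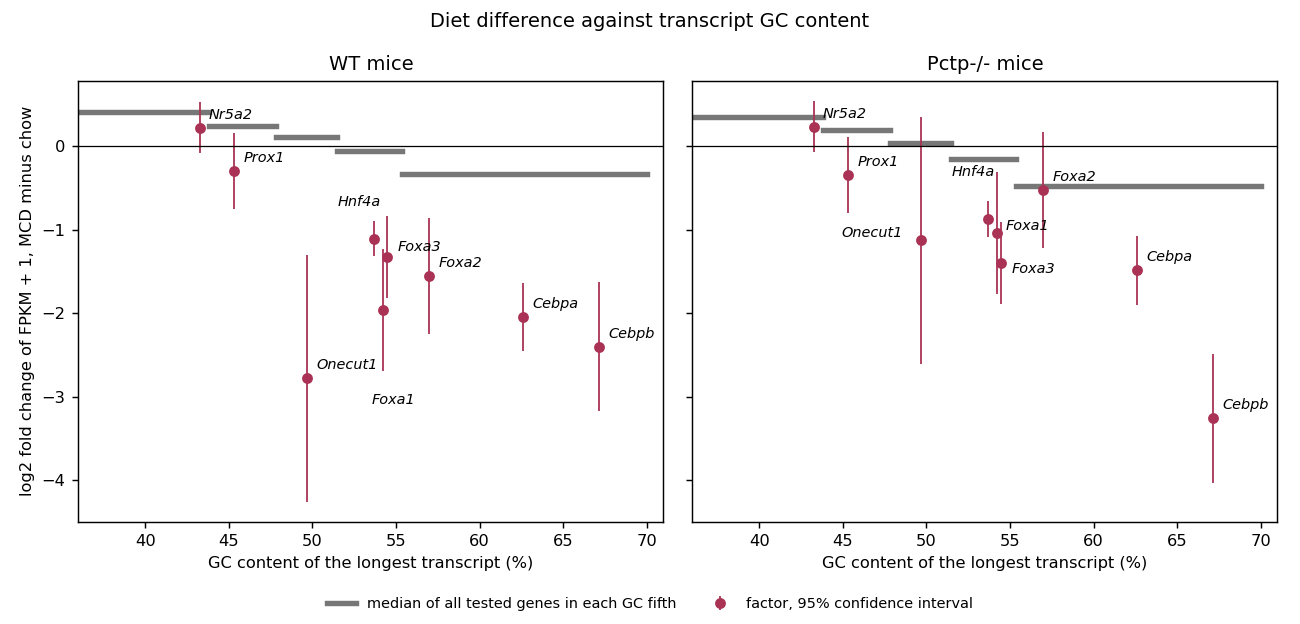
Log2 difference between MCD and chow (FPKM + 1) against the GC content of the longest transcript in WT mice (left) and Pctp-/- mice (right), with 95% confidence intervals from limma and grey lines at the median of all tested genes in each of 5 GC bins. The medians step down from 0.41 to -0.34 in WT mice, where the whole interval of each of the 7 lower factors lies under the median of its bin.

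The genotype comparison asks what loss of PC-TP did to the factors within a diet. On chow 0 of the 9 factors were called by limma, where 0.136% of all tested genes were called. An unadjusted p under 0.05 was found for 2 of the 9, and for 6.98% of all tested genes. One was Foxa2, at 26.2 ± 7.45 FPKM in Pctp-/- against 58.7 ± 28.6 in WT livers. Its log2 difference was -1.04 (interval -1.74 to -0.35, adjusted p = 0.390, limma). The other was Hnf4a, at 193 ± 14.9 against 239 ± 17.8 FPKM, a log2 difference of -0.30 (interval -0.51 to -0.09, adjusted p = 0.424, limma). Without single libraries 2 to 5 of the 9 had an unadjusted p under 0.05. There were 5 without replicate 3 of WT chow or replicate 2 of Pctp-/- chow. Hnf4a was the only one of the 9 whose groups did not overlap on chow, as was the case for 5.38% of all tested genes in this direction. The intervals of Onecut1 (-1.47, interval -2.95 to 0.01) and Cebpb (0.76, interval -0.01 to 1.53) were wide and included 0. The median log2 difference of the 9 was -0.30 and that of all tested genes 0.01. Without replicate 1 of the WT chow group the median was -0.14, and the differences were -0.70 for Foxa2, -0.81 for Onecut1 and -0.14 for Foxa1, where all libraries gave -0.61 for Foxa1. Without replicate 3 of that group they were -1.45, -2.32 and -1.04. Without replicate 1 of Pctp-/- chow Onecut1 was at -0.97 and Cebpb at 1.24, and without replicate 3 of Pctp-/- chow Cebpb was at 0.50.

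On MCD 0 of the 9 were called between genotypes by limma, against 0.818% of all tested genes. None of the 9 had an unadjusted p under 0.05, against 16.3% of all tested genes. Foxa1 was the only factor without overlap, 7.45 ± 0.740 FPKM in Pctp-/- against 5.81 ± 0.180 in WT livers, as was the case for 5.50% of all tested genes in this direction, and its log2 difference was 0.31 (interval -0.42 to 1.04). Each limma p-value and interval used 1 spread per gene over all 4 groups. Within groups the SD of Foxa1 was 0.69 on chow and 0.09 on MCD, so its MCD interval also carries the chow scatter. For Hnf4a the interval of -0.28 to 0.14 and for Nr5a2 that of -0.35 to 0.26 were narrow, while that of Onecut1 was -1.29 to 1.66. The median log2 difference of all tested genes between genotypes was -0.09 on MCD, beside -0.07 for Hnf4a, and the signs for Hnf4a, Foxa2, Cebpb and Nr5a2 depended on the scaling.

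**Figure D4:**
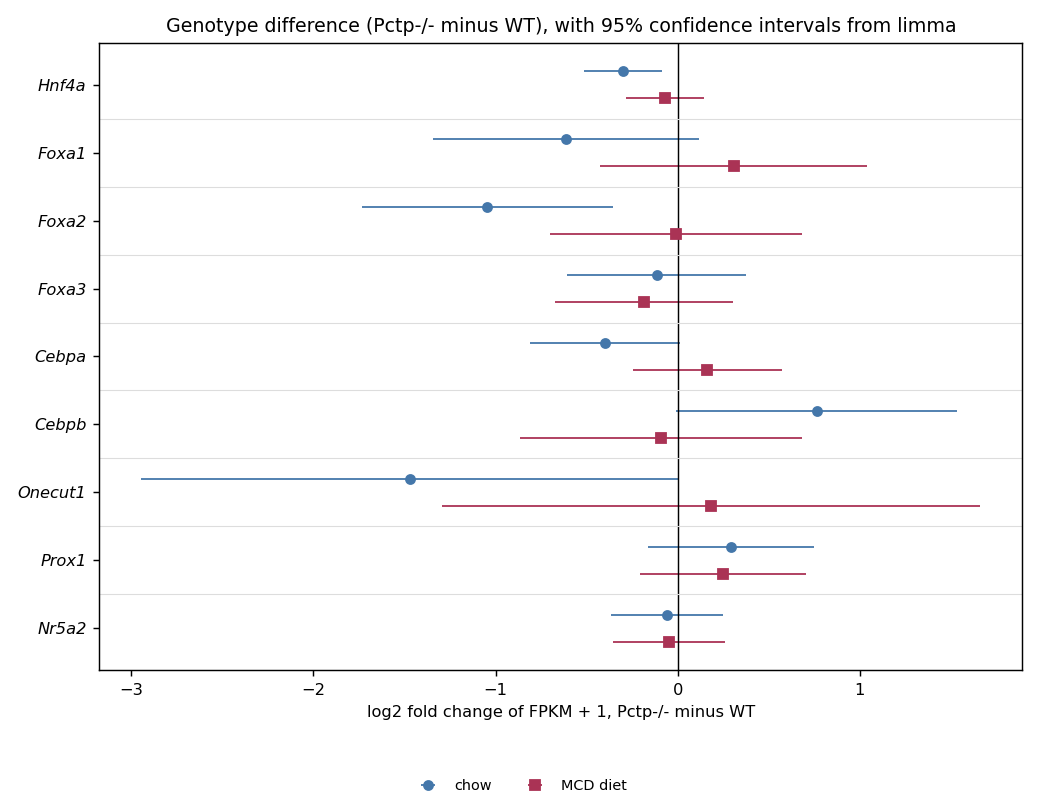
Log2 difference of FPKM + 1 between Pctp-/- and WT livers for each factor on chow (circles) and on the MCD diet (squares), with 95% confidence intervals from limma. On chow the intervals of Foxa2 and Hnf4a lie under 0 before adjustment for the number of genes, and on MCD every interval includes 0. Each interval uses 1 spread per gene over all 4 groups.

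The spread between mice differed by diet for several factors. Within groups, the SD of log2 values on chow and on MCD was 0.69 and 0.09 for Foxa1, 1.40 and 0.33 for Onecut1, 0.60 and 0.28 for Foxa2 and 0.60 and 0.44 for Cebpb, with medians over all tested genes of 0.17 and 0.14. On chow the same libraries were the extremes of their group for several factors, and the like count over all tested genes is not given here. Replicate 1 of the WT chow group was the highest of its group for 7 of the 9 factors (Hnf4a, Foxa1, Foxa2, Foxa3, Cebpa, Onecut1 and Nr5a2), and replicate 3 was the lowest for the same 7. In the Pctp-/- chow group replicate 2 was the highest for 6, the same without Nr5a2, and replicate 1 was the lowest for Hnf4a, Foxa1, Foxa2, Foxa3, Cebpb and Onecut1. Prox1 ran the other way, lowest in replicate 1 of WT chow and highest in replicate 1 of Pctp-/- chow. Replicate 1 of WT chow had the most uniquely mapped reads of the 12 libraries, 55179468, and the lowest FPKM total, 463615. Its median-of-ratios scaling factor, 1.05, was the largest of the chow libraries. The part of these measures in the levels was not tested. Without this library, 7 factors were still called lower on MCD in WT livers, as were 2510 of 12466 tested genes. The median log2 difference of the 9 was then -1.21, and the genotype difference of Foxa1 on chow went from -0.61 to -0.14.

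Ratios of related factors within a library do not depend on the scaling between libraries. For 4 pairs, the log2 ratio, with 0.1 FPKM added to each value, was compared between diets within genotype and between genotypes within diet by an exact two-sided permutation test with 400 arrangements, whose smallest p is 0.005, and p-values were adjusted over the 8 tests. The ratio of Foxa1 to Foxa2 was 0.572, 0.408 and 0.453 in WT and 0.583, 0.628 and 0.713 in Pctp-/- livers on chow. On MCD it was 0.321, 0.327 and 0.338 in WT and 0.355, 0.520 and 0.413 in Pctp-/- livers. It was higher in all 3 Pctp-/- libraries than in all 3 WT libraries on each diet, and lower on MCD than on chow in each genotype. The differences were 0.40 for genotype (exact permutation p = 0.005, adjusted p = 0.02) and -0.55 for diet (exact permutation p = 0.005, adjusted p = 0.02). With values corrected for GC content and length, which are on the log2(FPKM + 1) scale, both had an adjusted p of 0.04, and a pseudocount of 1 FPKM alone left both at 0.02.

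The ratio of Nr5a2 to Prox1 was 1.34, 0.940 and 0.820 in WT and 0.745, 0.753 and 0.847 in Pctp-/- livers on chow, and 1.23, 1.54 and 1.77 in WT and 1.08, 1.30 and 1.22 in Pctp-/- livers on MCD. This ratio was higher on MCD by 0.59 on the log2 scale (exact permutation p = 0.01, adjusted p = 0.0267) and differed by -0.35 between Pctp-/- and WT livers (exact permutation p = 0.025, adjusted p = 0.04). With the correction and a pseudocount of 1 FPKM both adjusted p-values were 0.05, and with that pseudocount alone they were 0.0267 and 0.04. Cebpb to Cebpa was 0.193, 0.225 and 0.361 in WT and 0.323, 0.607 and 0.904 in Pctp-/- livers on chow, and 0.217, 0.196 and 0.163 in WT and 0.119, 0.286 and 0.118 in Pctp-/- livers on MCD. The diet difference was -1.10 (exact permutation p = 0.015, adjusted p = 0.03), and it was -0.80 with the correction and a pseudocount of 1 FPKM (adjusted p = 0.144) and -1.06 with that pseudocount alone (adjusted p = 0.04). Its genotype difference was 0.45 and did not pass (adjusted p = 0.29). Foxa3 to Foxa2 was 0.680, 0.855 and 1.25 in WT and 1.52, 1.64 and 2.11 in Pctp-/- livers on chow, without overlap, and on MCD it was 1.24, 0.856 and 1.11 in WT and 0.776, 1.43 and 0.734 in Pctp-/- livers, with overlap. Neither test of this ratio passed, at -0.33 for diet (adjusted p = 0.29) and 0.39 for genotype (adjusted p = 0.28).

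Several of these ratio calls were lost when single libraries were left out. The permutation test then has fewer arrangements, so a call can be lost while the difference hardly changes. A lost call alone therefore does not show that a ratio depended on that library. The diet call of Foxa1 to Foxa2 was lost without replicate 2 of Pctp-/- chow or replicate 2 of WT MCD (adjusted p = 0.0533 in each case, with differences of -0.55 both times), and the genotype call without either of these or replicate 3 of Pctp-/- chow (0.05). The genotype differences were then 0.41, 0.40 and 0.36, in this order, where all libraries gave 0.40. The diet call of Nr5a2 to Prox1 was lost without replicate 2 of Pctp-/- chow or of WT MCD (0.0533). Its difference was then 0.58 both times, where all libraries gave 0.59. The genotype call of Nr5a2 to Prox1 was lost without any 1 of 9 libraries, replicate 1 of WT chow, replicates 2 and 3 of WT MCD, and all replicates of the 2 Pctp-/- groups, with adjusted p of 0.05 to 0.104, and its difference was smallest, -0.24, without replicate 1 of WT chow. The diet call of Cebpb to Cebpa was lost without replicate 3 of WT chow, replicates 2 or 3 of Pctp-/- chow, replicates 2 or 3 of WT MCD, or replicates 1 or 3 of Pctp-/- MCD (0.056 to 0.088), and its difference was smallest, -0.93, without replicate 3 of Pctp-/- chow.

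**Figure D5:**
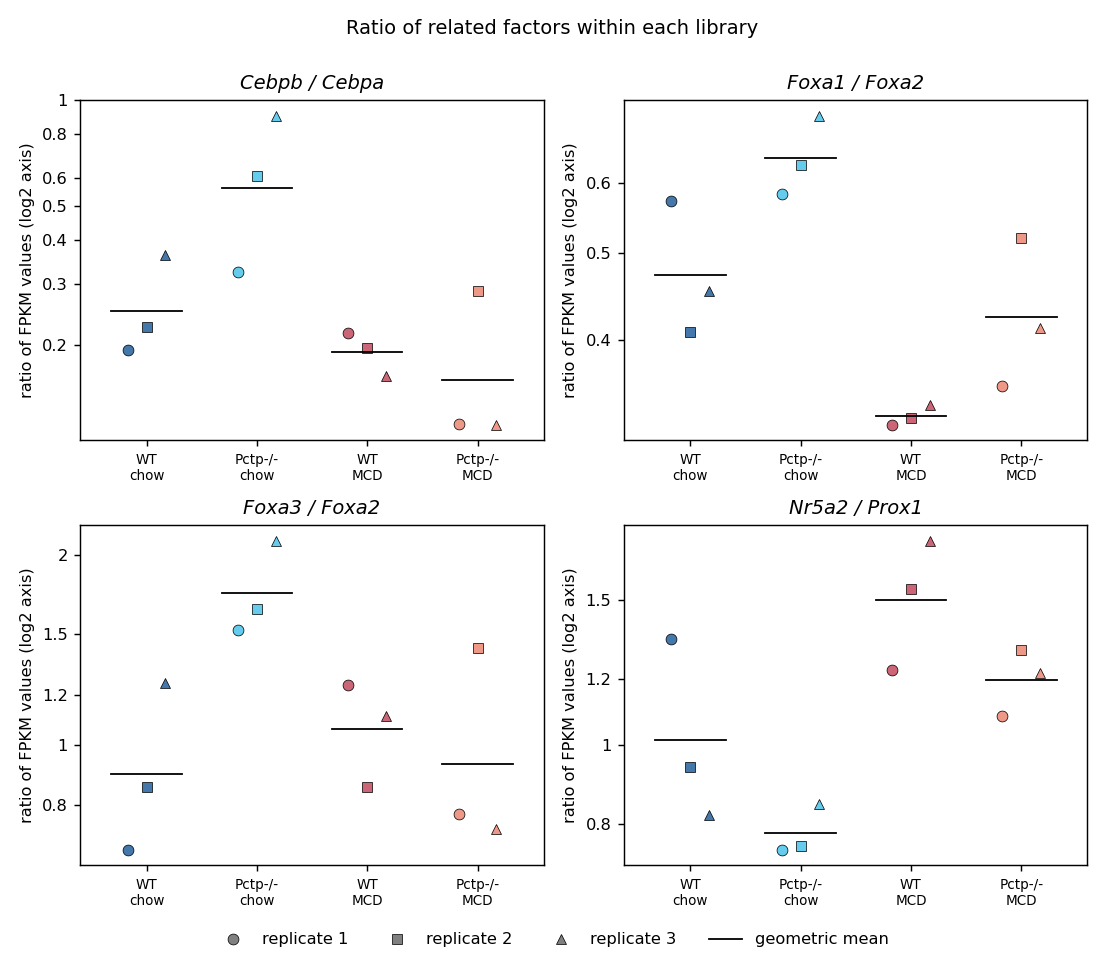
Ratio of FPKM values of 4 pairs of factors within each library (log2 axis), with a marker per replicate and a line at the geometric mean. The ratio of Foxa1 to Foxa2 is higher in every Pctp-/- library than in every WT library of the same diet, and its WT MCD values sit between 0.321 and 0.338.

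The wider liver network was followed in 21 further hepatocyte factors with enough signal, of 22 listed. In WT livers 14 of the 21 were lower on MCD and 0 higher (limma), and in Pctp-/- livers 13 were lower and 2 higher, where 22.5% and 24.4% of all tested genes were called lower. Their median log2 difference was -0.47 and -0.58. With the correction for GC content and length 11 and 10 were lower and 0 higher in either genotype. Of the 12401 genes corrected, 2391 and 2536 were called lower, and 3968 and 2596 higher. Without replicate 1 of WT chow 9 of the 21 were lower in WT livers, as were 2510 of 12466 tested genes. Over all alternatives 9 to 17 of the 21 were lower in WT and 10 to 15 in Pctp-/- livers. The largest falls in WT livers were those of Klf15, a Krüppel-like factor of amino acid and glucose metabolism, at -1.60 (adjusted p = 2.56e-04), and of Nfix, a nuclear factor I protein, at -1.53 (adjusted p = 2.67e-06). No factor of this list was called between genotypes on either diet, and 2 had an unadjusted p under 0.05 on each (limma). Of all tested genes 6.98% on chow and 16.3% on MCD had such a p. Without replicate 1 of WT chow or replicate 3 of Pctp-/- chow 1 was called higher on chow, and with quantile normalization 1 was called higher on MCD. In these settings 16, 5 and 69 of 12466 tested genes were called higher.

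Relatives of the factors in their own families did not all go the same way. Of 9 listed, 4 had enough signal, and all 4 were called in WT livers, where 34.5% of all tested genes were called higher and 22.5% lower. Cebpd, an acute phase member of the C/EBP family, was lower on MCD by -0.78 (adjusted p = 0.00785, limma), and Onecut2 by -0.43 (adjusted p = 0.0328), a call that held in 17 of 23 alternatives and was lost without replicates 1 or 2 of WT chow or replicates 2 or 3 of WT MCD (-0.45 to -0.29). Cebpg, a C/EBP protein of amino acid stress, was higher by 0.77 (adjusted p = 1.66e-04), and Ddit3, which encodes the stress factor CHOP and pairs with other C/EBP proteins, by 2.05 (adjusted p = 0.00300). The falls of Cebpa and Cebpb in the same libraries therefore stood beside rises of Cebpg and Ddit3. In Pctp-/- livers 3 of these 4 were higher on MCD and 1 lower, and with the correction for GC content and length 1 was higher and 1 lower. Of all tested genes 26.0% were called higher and 24.4% lower in Pctp-/- livers. With the correction 2596 of 12401 were called higher and 2536 lower.

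Each list of target genes held genes called lower and genes called higher on MCD in WT livers, where 22.5% of all tested genes were called lower and 34.5% higher (24.4% and 26.0% in Pctp-/- livers). Of 18 genes listed as HNF4A targets, 7 were lower and 4 higher on MCD in WT livers, with a median log2 difference of 0.03, and 6 were lower and 5 higher in Pctp-/- livers. G6pc, the last step of glucose release, fell by 2.90 on the log2 scale (adjusted p = 0.00461, limma) and Slc10a1, the bile acid uptake carrier NTCP, by 1.79 (adjusted p = 6.68e-04). The apolipoprotein genes Apoc2 (1.67, adjusted p = 2.86e-06) and Apoa4 (5.32, adjusted p = 1.84e-07) rose. Of 7 FOXA targets 2 were lower, Pck1 of gluconeogenesis (-1.50, adjusted p = 0.00990) and Apoa1 (-0.45, adjusted p = 0.0249). Apoa1 had no call with the correction (-0.29, adjusted p = 0.117) or without replicate 2 of WT chow (-0.37) or of WT MCD (-0.36). Another 3 were higher, among them Igfbp1 (1.76, adjusted p = 0.0257) and the fetal albumin relative Afp (2.53, adjusted p = 1.84e-05). Igfbp1 was at 0.98 without replicate 1 of WT chow (adjusted p = 0.108), and it had no call without replicates 1 or 2 of WT MCD either.

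Of 7 CEBPA targets 3 were lower, G6pc and Pck1 among them, and 2 were higher, Alb (0.66, adjusted p = 5.02e-04, limma) and the iron hormone gene Hamp (0.81, adjusted p = 0.0476). The call of Hamp held in 9 of 23 alternatives, and it was lost with the correction (0.64, adjusted p = 0.0797), with median-of-ratios scaling (0.66, adjusted p = 0.122) and without any 1 of 8 libraries, among them replicate 1 of WT chow (0.54, adjusted p = 0.190). Quantile normalization put the difference of Alb at 0. Of 8 acute phase genes listed under CEBPB 4 were higher, among them Orm2 (3.03, adjusted p = 1.90e-05) and Lcn2 (5.66, adjusted p = 1.04e-06), and Crp was lower (-0.53, adjusted p = 0.0178), without a call when replicates 2 or 3 of WT chow or replicate 1 of WT MCD were left out (-0.48 to -0.39). Of 9 NR5A2 targets 4 were lower, among them the bile acid 12-hydroxylase gene Cyp8b1 (-1.23, adjusted p = 1.18e-04, limma), and 1 was higher, the bile salt export pump gene Abcb11 (0.57, adjusted p = 0.00122). The lists share genes, so their counts are not independent of one another. Between genotypes 0 genes of these 5 lists were called by limma, and 0 to 1 per list on chow and 1 to 5 on MCD had an unadjusted p under 0.05. Such a p was found for 6.98% of all tested genes on chow and 16.3% on MCD. With the correction 1 gene of the FOXA list and 1 of the CEBPA list, which share genes, were called higher on MCD, as were 48 of 12401 genes. On MCD 1 HNF4A target was called higher with the replicate block, with quantile normalization and without replicate 3 of WT MCD. Of 12466 tested genes 41, 69 and 40 were called higher in these settings. An HNF4A target was called lower without that library or without replicate 1 of WT chow, where 133 and 64 tested genes were called lower. In Pctp-/- livers the counts on MCD were 3 lower and 2 higher for FOXA, 3 and 3 for CEBPA, 0 and 4 for CEBPB, and 2 and 2 for NR5A2 targets.

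Markers of the cells in the samples were called between the diets too. Of all tested genes 22.5% were called lower and 34.5% higher on MCD in WT livers, and 24.4% and 26.0% in Pctp-/- livers. Of 19 hepatocyte markers 9 were lower, among them Hpd (-1.17, adjusted p = 1.33e-04, limma), and 3 were higher on MCD in WT livers, among them Ahsg (0.75, adjusted p = 4.51e-04). Their summed level was 60572 to 70631 FPKM in the WT and 66981 to 69196 in the Pctp-/- chow libraries and 78670 to 88677 and 94322 to 101720 on MCD. Alb alone took 5.46 to 6.13% of all FPKM on chow, and on MCD 7.84 to 8.69% in WT and 10.7 to 11.7% in Pctp-/- livers, which did not overlap. In Pctp-/- livers 5 hepatocyte markers were lower and 4 higher on MCD. The hepatocyte markers of the labelled tissue were all present, with the lowest single value that of G6pc, 15.8 FPKM.

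Of 9 macrophage markers with enough signal 8 rose in WT livers, among them Lyz2 (3.26, adjusted p = 2.38e-05, limma) and Cd68 (2.49, adjusted p = 4.07e-05), and the summed level of all 10 listed ranged over both genotypes from 65.0 to 175 FPKM in the chow and from 289 to 550.0 in the MCD libraries. The neutrophil genes S100a8 (3.26, adjusted p = 1.10e-05) and S100a9 (3.00, adjusted p = 2.16e-06) rose, with a summed level of all 5 listed of 0.147 to 2.91 FPKM on chow and 5.67 to 22.5 on MCD. Of 8 stellate cell markers 3 rose, among them Lrat (1.41, adjusted p = 1.43e-04) and Reln (0.71, adjusted p = 0.0184), and 6 did with the correction for GC content and length. Of all tested genes 34.5% were called higher in WT livers, and 3968 of 12401 with the correction. Reln had no call without replicates 2 or 3 of WT chow or replicate 1 of WT MCD (0.50 to 0.66). In Pctp-/- livers 5 of the 9 macrophage, 2 neutrophil and 2 stellate cell markers were called higher and 0 lower. There 26.0% of all tested genes were called higher and 24.4% lower.

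Of 8 endothelial markers Lyve1 (0.69, adjusted p = 0.00512, limma) and Clec4g (0.49, adjusted p = 0.00345) rose and Stab1 (-0.46, adjusted p = 0.0176) fell, the last without a call and at 0.12 when corrected for GC content and length, when 5 endothelial markers rose and 0 fell. In WT livers 34.5% of all tested genes were called higher and 22.5% lower. With the correction 3968 of 12401 genes were called higher and 2391 lower. Stab1 had no call either without replicate 1 of WT chow or replicates 2 or 3 of WT MCD (-0.43 to -0.33). Of 5 cholangiocyte markers with enough signal Spp1 rose (0.75, adjusted p = 0.0111), but not with the correction (0.30, adjusted p = 0.288, limma), and 0 of 3 lymphocyte markers were called, with 0 at an unadjusted p under 0.05 (61.6% of all tested genes). Of 3 erythroid genes Hba-a1 (-1.26, adjusted p = 0.00597) and Hbb-bt (-0.78, adjusted p = 0.00733) fell. Of 2 hepatoblast markers with enough signal Afp rose, and of 3 lymphatic endothelial markers Lyve1, also an endothelial marker, rose. In Pctp-/- livers 1 endothelial, 1 lymphatic, 2 cholangiocyte and 2 erythroid markers were lower, 1 hepatoblast marker was higher, and 0 lymphocyte markers were called, with 1 at an unadjusted p under 0.05 (56.5% of all tested genes). Of all tested genes 24.4% were called lower and 26.0% higher there. All 7 pancreatic acinar markers were at 0 in the chow libraries and summed to at most 0.174 FPKM on MCD. Between genotypes 0 markers were called by limma, with 0 to 1 per list on chow and 0 to 7 on MCD at an unadjusted p under 0.05. The shares of all tested genes under it were 6.98% on chow and 16.3% on MCD. On MCD 1 hepatocyte marker was called higher in Pctp-/- livers with the correction, with the replicate block, with quantile normalization and without replicate 3 of WT MCD. In these settings 48 of 12401 and 41, 69 and 40 of 12466 tested genes were called higher. The hepatocyte markers share genes with the lists of targets. On MCD 1 stellate cell marker was called lower without replicate 3 of WT MCD, and 1 neutrophil marker with the replicate block, 2 when the block was joined to the correction. In these settings 133 and 74 of 12466 and 88 of 12401 tested genes were called lower. The part of these cell types in the falls of the 9 factors was not tested.

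Some genes followed the factors closely over the 12 libraries. Likeness was measured as the root mean square difference of log2 values after each gene was centred on its mean, and is given as a description, since libraries share diet and set. The pattern most like that of Hnf4a belonged to Skiv2l (0.11), Tfeb (0.11) and Sidt2 (0.11), and that of Foxa3 to Rai1 (0.18), Hip1r (0.19) and Sema6b (0.19). For Cebpa these were Npr2 (0.19), Zfp36l1 (0.22) and Selenoo (0.22), and for Cebpb Irf2bp2 (0.31), Nrtn (0.44) and Gm15890 (0.45). Foxa1 was nearest to Gm16551 (0.29), to Cebpa (0.29), itself one of the 9, and to Serpina9 (0.31), and Foxa2 to Socs3 (0.28), Gm15962 (0.28) and Arid5b (0.30). The genes nearest to Onecut1 were Adh6-ps1 (0.59), Gm16551 (0.62) and Foxa1 (0.62). This measure grows with the spread of a gene, so its values cannot be ranked between factors. The SD within groups on chow was 1.40 for Onecut1 and 0.11 for Hnf4a.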

How the data were processed

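RNA-seq of whole liver from 12 mice was used. The authors deposited 1 table of FPKM values per gene and library (build mm10 per the labels) and 1 table of read totals and of mapping, quality and GC percentages. The aligner, counter and strand setting are not given in the sources used here. Read counts per gene were not used, so the depth behind single values is unknown, and limma took the place of the count test of the study's methods. Identifiers were matched to GENCODE M21, with 34490 of 35275 found. With limma 3.58.1 in R 4.3.3, log2(FPKM + 1) was fitted with 1 mean per group and a mean-variance trend for the 12466 genes whose mean FPKM reached 0.5. The spread of each gene was estimated over all 12 libraries together. P-values were adjusted by Benjamini-Hochberg over all of them, with a threshold of 0.05 and no minimum fold. Fold changes are on this scale and understate those of low genes. The code was tested on simulated data. The correction for transcript GC content and length (natural splines with 4 degrees of freedom, 12401 genes) was added after the data were seen.

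Replicate numbers were not used to pair the samples in the main fits. Over 18 pairs of libraries with the same number in different groups, correlations of deviations from group means ran from -0.10 to 0.22, and 8 were above 0.1. With the replicate block, genes called between genotypes on chow went from 7 higher and 10 lower to 12 and 20. For the difference of the diet effects they went from 5 higher and 7 lower to 29 and 30. No 2 libraries were identical. The factors and gene lists were chosen with earlier results of these data known. Named were all 9 factors, Pctp, and of every list up to 2 genes each way with the largest called change in a comparison. Some genes that this rule names, and 1 list, are not reported here. The 3 genes nearest in pattern were named for each factor called between diets. Python 3.11.15, numpy 2.4.6, pandas 2.3.3 and matplotlib 3.10.9 were used.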

Additional observations from a re-analysis of the deposited data

How the results depend on the processing

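Each comparison was refitted with another pseudocount, minimum, scaling, trend, variance model or set of libraries, with the replicate block, and without each library. The 7 calls of lower factors in WT livers held in all 23 alternatives, and those of Hnf4a, Foxa3, Cebpa and Cebpb in Pctp-/- livers did too, while that of Foxa1 held in 18 of 23. With the replicate block 7 factors were lower in WT and 5 in Pctp-/- livers, and it ended no call of a factor. With the block and the GC correction the counts were 7 and 4. Of 12466 tested genes 2845 and 3079 were called lower with the block, and of 12401 with both, 2381 and 2519. Values with no call changed sign in places, and the cause was not tested. For Pctp-/- against WT livers on MCD, median-of-ratios scaling gave 0.040 for Hnf4a, 0.092 for Foxa2, 0.015 for Cebpb and 0.057 for Nr5a2. Quantile normalization gave 0.091 for Foxa2, 0.017 for Cebpb and 0.064 for Nr5a2, and the GC correction 0.042 for Foxa2. The difference of the diet effects became 0.048, 0.023 and 0.00065 for Foxa3 (quantile, median-of-ratios, GC), 0.073 and 0.044 for Prox1 (quantile, median-of-ratios) and -0.045 for Nr5a2 (GC). In WT livers the diet difference of Alb was 0 under quantile normalization and that of Stab1 0.12 with the GC correction. With the GC correction and a pseudocount of 1 FPKM the ratio differences whose calls were lost were -0.80 (Cebpb to Cebpa, diet), 0.43 and -0.32 (Nr5a2 to Prox1, diet and genotype). Without single libraries, genotype differences ran on chow from -0.29 to 0.12 for Foxa3 and -0.24 to 0.039 for Nr5a2, and on MCD from -0.19 to 0.20 for Foxa2, -0.44 to 0.13 for Cebpb and -0.12 to 0.0039 for Nr5a2. The difference of diet effects ran from -0.30 to 0.11 for Foxa3, -0.22 to 0.18 for Prox1 and -0.084 to 0.20 for Nr5a2. Factors called higher on MCD in Pctp-/- livers numbered 0 to 1, the 1 being Nr5a2 without replicate 1 of Pctp-/- chow. Ratio differences ran from -1.31 to -0.93 for Cebpb to Cebpa (diet), -0.62 to -0.48 and 0.32 to 0.47 for Foxa1 to Foxa2 (diet, genotype), and 0.51 to 0.69 and -0.42 to -0.24 for Nr5a2 to Prox1. With 3 livers a group and no counts, small changes of the scattered factors Onecut1, Foxa1, Foxa2 and Cebpb were not detectable.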
